A study of Mus musculus with 6 samples.

Results

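The 5 genes described here encode peptides of pain- and itch-sensing neurons, and their RNA was measured in LARP1 precipitates of mouse dorsal root ganglia (DRG) with and without sciatic nerve injury. They were chosen by Ensembl gene identifier from the 16976 identifiers of the count table, and all 5 had a row. The members were Calca (ENSMUSG00000030669) and Calcb (ENSMUSG00000030666), the genes of calcitonin gene-related peptide (CGRP), together with Tac1 (ENSMUSG00000061762), the gene of substance P, Sst (ENSMUSG00000004366), the gene of somatostatin, and Nppb (ENSMUSG00000029019), the gene of B-type natriuretic peptide. All mice were wild-type. The injured group was DRG with sciatic nerve injury and the uninjured group was DRG without it, with 3 libraries each. The age, sex and strain of the mice, the time after injury, the ganglia taken and the number of animals per library are not stated in the labels. DRG were lysed fresh, LARP1 was pulled down with an antibody, and the RNA that came with it was read as amplified nanopore cDNA. No total RNA and no control precipitate was analysed here, so a value is a level in the precipitate, in which the amount of an RNA in the tissue and the share of it held by LARP1 are both contained.

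DRG hold the cell bodies of the neurons that carry touch, pain and itch from the body. A large class of their pain-sensing neurons, the peptidergic nociceptors, stores CGRP and substance P in dense-core vesicles and releases both at the spinal terminal and in the skin, where they widen vessels and drive neurogenic inflammation. Calca gives rise to calcitonin or to alpha-CGRP by alternative splicing, with alpha-CGRP the main product in neurons, and Calcb encodes beta-CGRP. Tac1 encodes a precursor from which substance P and neurokinin A are cut. Sst and Nppb mark a small class of neurons that signals itch to the spinal cord. LARP1 is an RNA-binding protein best known for gripping the cap and the first bases of mRNAs that begin with a terminal oligopyrimidine tract, a C at the cap followed by an unbroken run of pyrimidines, as many mRNAs of ribosomal proteins do.

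Because LARP1 reads the first bases of an mRNA, the annotated transcript starts of the members are shown. RefSeq start sequences (build GRCm38.p6, whereas the counts were made on GRCm39) were matched by symbol for 4 of the 5 members. Each line gives 30 bases, 5′ to 3′ on the gene's own strand, 10 before the start and 20 from it on, with the first 5 transcribed bases in capitals. Rps6, a ribosomal protein gene, stands last as an example of an oligopyrimidine start and was picked for that.
Calca, chr7:114636338-114636367, minus strand: cgagacccctCCCGActcaccacggcggga
Tac1, chr6:7555051-7555080, plus strand: gctggggactAGACCgcactcggacctgct
Sst, chr16:23890825-23890854, minus strand: agagctccatAGCGGctgaaggagacgcta
Nppb, chr4:147985890-147985919, plus strand: tgttgaagacACCAGtgcacaagctgcttg
Rps6, chr4:86857348-86857377, minus strand: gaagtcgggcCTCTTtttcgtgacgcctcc

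None of the 4 member starts had a C followed by 4 pyrimidines, searched only at the start base and on the transcribed strand. Calca came nearest, with 3 pyrimidines before a G, and Sst had 1 pyrimidine in its first 5 bases. The same letters stood at 823 of all 32851 starts in the table (2.51%) and at 13 of the 70 starts of genes named as ribosomal proteins (18.6%). Annotated starts can lie off the base used in DRG: the gene model reached 553 bases further upstream for Calca, 498 for Sst and 114 for Nppb. The letters were also absent at most starts of the ribosomal protein genes, many of whose mRNAs begin with the tract, so the search can miss such starts. The absence of the letters here therefore describes these windows only.

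The libraries were shallow, and those of a group were close to copies of each other. The injured libraries held 211337 to 211879 counts and the uninjured ones 116186 to 116608. The spread between the 3 libraries, over genes with a group sum of 15 or more, was 1.12 times the variance of counting in injured and 1.16 times in uninjured DRG. The labels do not tie the libraries to separate animals. Each group was therefore summed and taken as 1 sample, of 634615 injured and 349027 uninjured counts, and the contrast has no replicate check and cannot be told apart from any batch that holds 1 group. Levels are CPM, the counts per 1000000 counts of the total. Intervals are exact 95% ones that cover counting error only. They treat reads as independent molecules, which amplified reads are not, so they can be too narrow. In whole ganglia, fewer cells of a type and less RNA per cell cannot be told apart, and markers of other cell types were not analysed here because the identifiers were not paired with symbols. Calca and Tac1, both products of sensory neurons, were present in all 6 libraries.

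The substance P gene was lower in the injured precipitate. Tac1 had 65, 74 and 73 counts in the injured libraries and 66, 79 and 65 counts in the uninjured libraries. Scaled to library totals, that was 307, 350 and 345 CPM in the injured libraries and 568, 677 and 559 CPM in the uninjured libraries. The raw counts were alike, but the injured libraries were deeper, and after scaling every injured library lay below every uninjured one. Summed by group, Tac1 stood at 334 CPM in the injured group (interval 291 to 382), against 602 CPM in the uninjured group (523 to 689). The injured level was 0.555 times the uninjured one (0.457 to 0.675), a log2 ratio of -0.85 (-1.13 to -0.57).

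The alpha-CGRP gene had a higher level in the injured precipitate. The counting interval of its ratio lay above 1, but the difference missed the threshold of the test across all genes. Calca had 104, 94 and 101 counts in the injured libraries and 45, 42 and 36 counts in the uninjured libraries, or 491, 445 and 478 CPM in the injured libraries against 387, 360 and 310 CPM in the uninjured libraries. The groups did not overlap, although the lowest injured library lay close above the highest uninjured one. The summed level was 471 CPM in the injured group (419 to 528) and 352 CPM in the uninjured group (293 to 420). The injured level was 1.34 times the uninjured one (1.08 to 1.66), a log2 ratio of 0.42 (0.11 to 0.73). The counts are per gene, so calcitonin and alpha-CGRP transcripts of Calca were not separated.

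**Figure D1:**
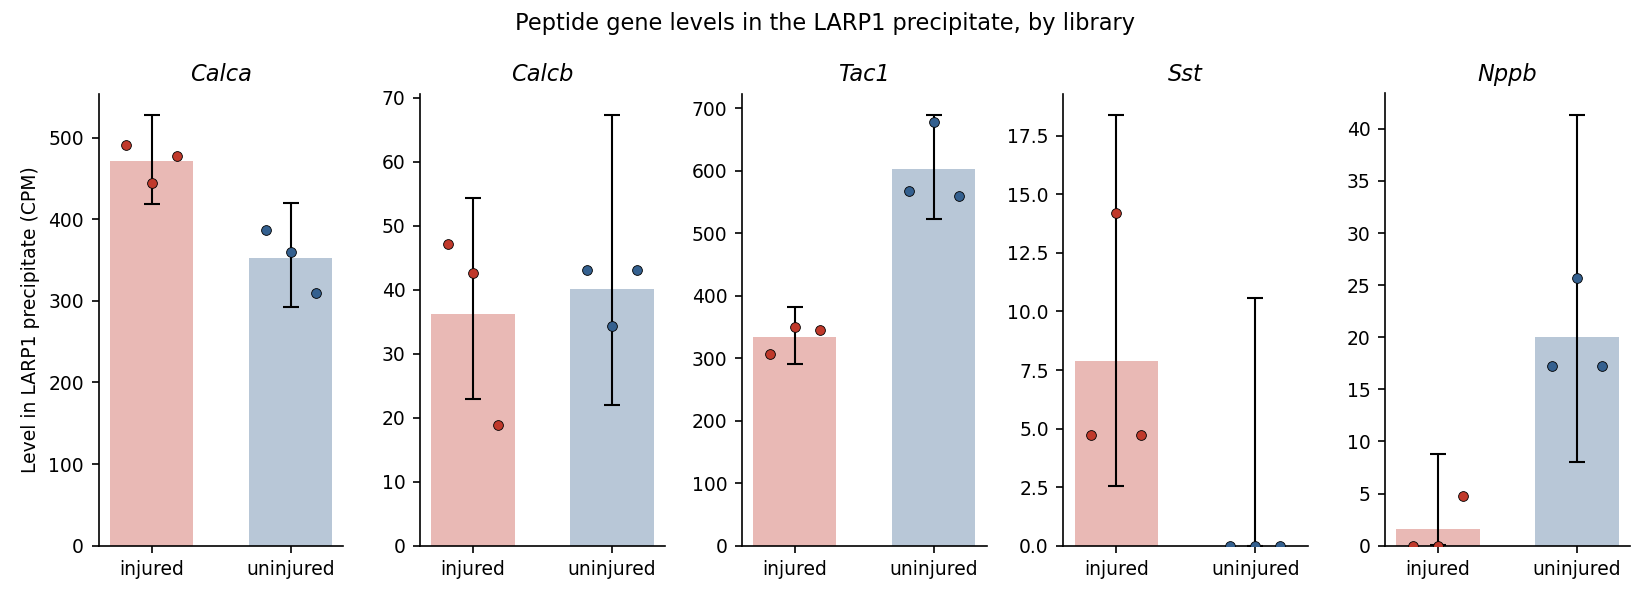
Level of each peptide gene in CPM (linear axis, own scale per panel) in the injured and uninjured LARP1 precipitates. Points are the 3 libraries of a group, bars the summed group and error bars the exact 95% Poisson interval of the summed counts. Tac1 lies at 307 to 350 CPM in injured libraries, below the 559 to 677 CPM of uninjured libraries, and Calca lies at 445 to 491 CPM in injured libraries, above the 310 to 387 CPM of uninjured libraries.

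The beta-CGRP gene gave too few reads to place it. Calcb had 10, 9 and 4 counts in the injured libraries and 5, 4 and 5 counts in the uninjured libraries. In CPM these were 47.2, 42.6 and 18.9 in the injured libraries and 43.0, 34.3 and 43.0 in the uninjured libraries, and the groups overlapped. The level was 36.2 CPM in the injured group (23.0 to 54.4) and 40.1 CPM in the uninjured group (21.9 to 67.3). The ratio of 0.904 had an interval of 0.446 to 1.90, so a difference of the size seen for Tac1 or for Calca was not detectable at this depth. Without the third injured library, which had the fewest Calcb counts, the log2 ratio changed sign to 0.16, from -0.15 with all libraries.

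Calca and Calcb are close paralogs, and reads of one can be assigned to the other. Added up, the CGRP genes stood at 507 CPM in the injured group (453 to 566), against 393 CPM in the uninjured group (330 to 464). The injured sum was 1.29 times the uninjured one (1.06 to 1.59), close to the value of Calca alone. The sum had the direction of Calca, with an interval that lay above 1. Calca supplied 299 of its 322 injured counts and 123 of its 137 uninjured counts. The direction of the sum was thus largely set by Calca and says little about Calcb.

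The balance between CGRP and substance P transcripts differed between the groups, in a measure that does not depend on how the libraries are scaled. Within a library, Calca made up 61.5%, 56.0% and 58.0% of the counts of Calca and Tac1 together in the injured libraries, and 40.5%, 34.7% and 35.6% in the uninjured libraries. Every injured library lay above every uninjured one. These shares are of reads, not adjusted for transcript length, and only their change between groups is compared. The count ratio of Calca to Tac1 was 1.41 after injury, against 0.586 without it, which differ 2.41-fold (exact interval 1.80 to 3.23). On the log2 scale the ratio of Calca exceeded that of Tac1 by 1.27 (0.84 to 1.69). It was 1 of 3 pairs compared, those with at least 10 counts of each gene in each group. The other pairs had intervals that included 0: the log2 ratio of Calca minus that of Calcb was 0.57 (-0.56 to 1.64), and that of Calcb minus that of Tac1 was 0.70 (-0.36 to 1.81). With 1 sample per group, these intervals compare the reads of those samples. How often other pairs of genes differ this much was not computed, so the shift is not shown to be particular to this pair. Ratios varied widely among the 3158 genes that passed a filter on low counts, with log2 quartiles of -0.46 and 0.74. Libraries of the groups did not overlap for 32.4% of these genes in the direction of Calca and for 23.1% in that of Tac1.

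**Figure D2:**
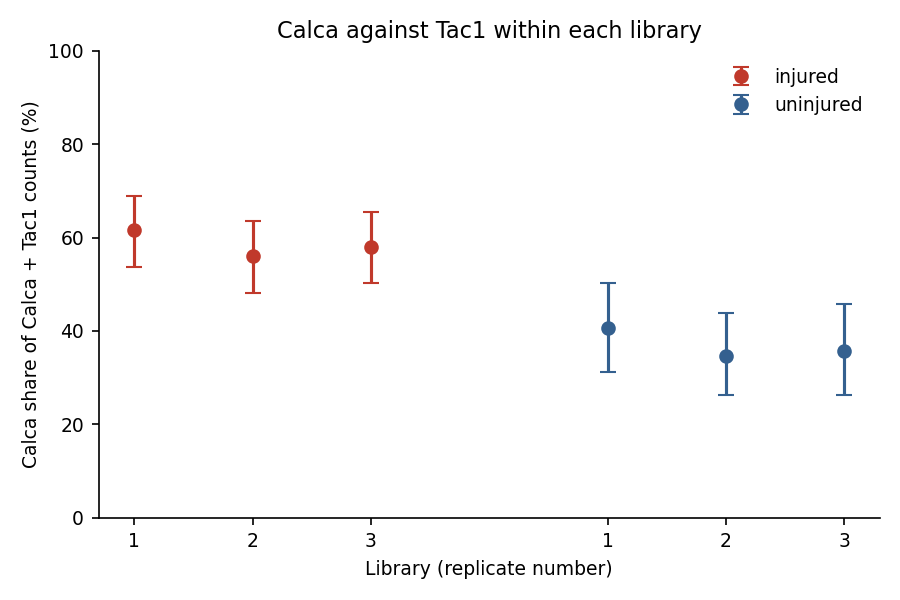
Share of Calca in the summed counts of Calca and Tac1, in percent, for each library. Points are libraries and bars are exact 95% binomial intervals for counting error. The share is 56.0% to 61.5% in the injured libraries and 34.7% to 40.5% in the uninjured libraries.

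The itch neuron peptides were at the edge of detection. Sst had 1, 3 and 1 counts in the injured libraries and 0 counts in every uninjured library. That is 7.88 CPM in the injured group (2.56 to 18.4), against 0 of 349027 counts in the uninjured group, for which the exact upper limit is 10.6 CPM. The injured level also lay under the floor of 3 counts in the uninjured group, 8.60 CPM, so no fold is given. The exact interval of the ratio begins at 0.504, has no upper limit and includes equal levels. Nppb had 0, 0 and 1 counts in the injured libraries and 2, 3 and 2 counts in the uninjured libraries. Its level was 1.58 CPM in the injured group (0.0399 to 8.78) and 20.1 CPM in the uninjured group (8.06 to 41.3). The injured level lay under the floor of 3 counts in the injured group, 4.73 CPM. Without that floor, the ratio was 0.0786, with an interval of 0.00174 to 0.612. The injured level was thus lower in these reads, by an amount that 8 reads cannot fix. In edgeR's fit without a filter Nppb was not called. Sst had too few counts for its direction to be set against that of Nppb.

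Set against all genes, the Tac1 difference was in the outer part of the distribution and that of Calca was not. Of the 5 members, 2 passed the filter on low counts, Calca and Tac1, as did 3158 genes in all. In edgeR's quasi-likelihood test on the 6 libraries, with adjustment over all genes tested, Tac1 was called lower and Calca missed the threshold of 0.05 by a narrow margin. The test called 24.9% of the genes higher and 22.1% lower. It compares the reads of 1 sample per group, so no p of a gene is given. By the interval of the CPM ratio alone, Calca was called higher, as were 31.1% of the genes, and Tac1 was called lower, as were 22.9%. Libraries of the groups did not overlap for 32.4% of the genes in the direction of Calca and for 23.1% in that of Tac1. The members' calls are thus of a kind that these precipitates held in large numbers.

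Over the tested genes the median log2 ratio was 0.08, with quartiles of -0.46 and 0.74. Tac1, at -0.85, had 13.8% of the tested genes below it. Among the 343 other genes whose mean CPM lay within 1.5-fold of its own, 10.8% had a lower ratio. Calca, at 0.42, had 35.9% of the tested genes above it, and 30.3% of the 400 other genes at a like level. The ratio of Calca was thus inside the middle range of the genes tested, whereas that of Tac1 lay below the lower quartile.

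**Figure D3:**
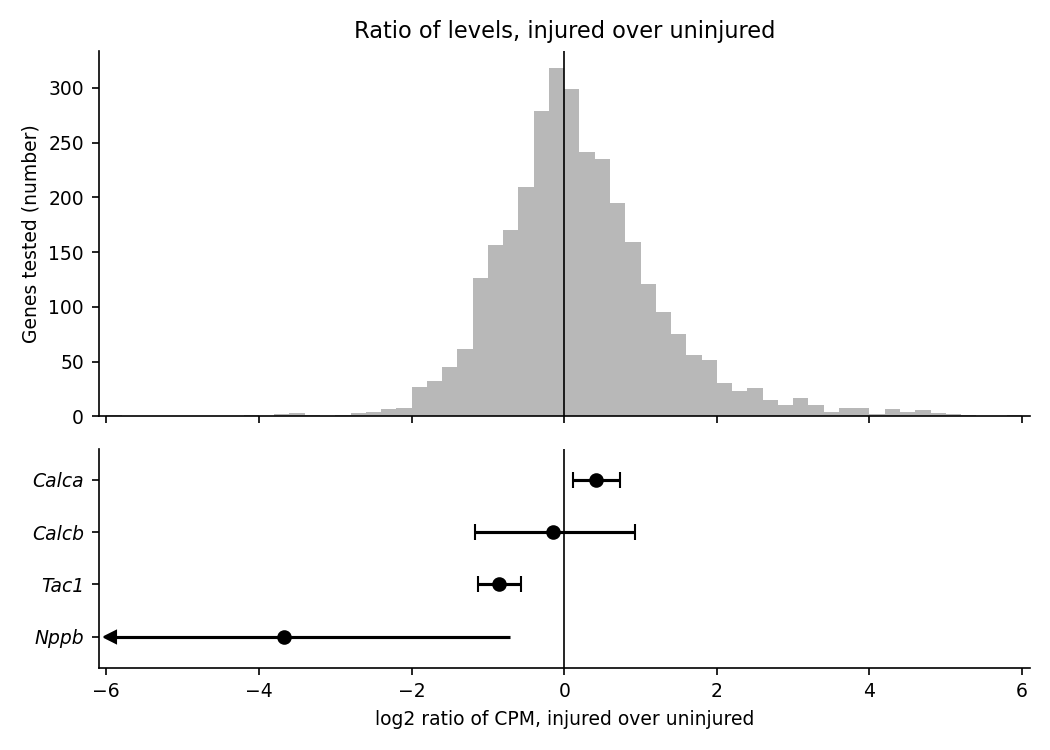
Top, number of tested genes (3158) by log2 ratio of CPM, injured over uninjured; bottom, the same ratio for 4 members with exact 95% intervals, where an arrow marks a limit beyond the axis. Calca (0.42) lies between the quartiles of all tested genes (-0.46 and 0.74), Tac1 (-0.85) lies below the lower one, and Calcb (-0.15) has an interval that spans 0.

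The call of Calca changed with the scaling and with single libraries, and that of Tac1 changed with neither. Calca was called higher in 4 of 16 fits across all genes: with DESeq2 size factors in edgeR, with column totals alone, without a filter and without the second injured library. Its fitted log2 value ranged from 0.23 to 0.46 and stayed above 0. Without the third uninjured library, the one with the lowest Calca level, the CPM ratio on the log2 scale was 0.33 and its interval of -0.01 to 0.70 included 0. Tac1 was called lower in 14 of the 16 fits, at log2 values of -1.04 to -0.80. The 2 fits without a call replaced the spread between libraries with an assumed coefficient of variation between animals, of 0.2 or 0.4, and neither gene was called in them. The other 14 fits took the spread between libraries that were close to copies of each other, and leaving 1 out only thinned the reads of the same sample. Their calls are therefore no check against a spread between animals.

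**Figure D4:**
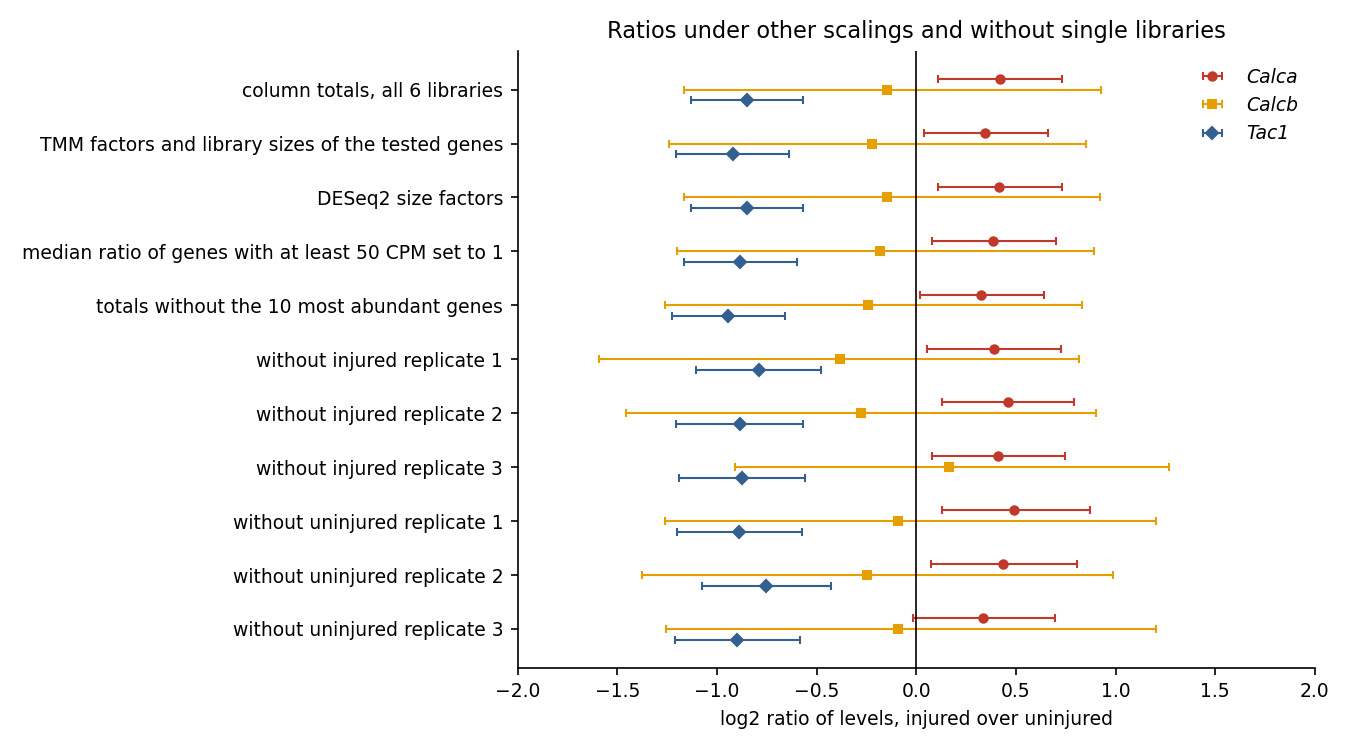
log2 ratio of Calca, Calcb and Tac1, injured over uninjured, under 5 scalings and with each library left out. Points are values from summed counts and bars exact 95% intervals. All Tac1 intervals lie below 0, all Calca values lie above 0 with 1 interval reaching -0.01, and Calcb changes sign without the third injured library.

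Calca and Tac1 were tied for the most counts among the members, 422 each over the 6 libraries, so likeness to other genes was measured for both. By the Euclidean distance of log2(CPM + 1) over the 6 libraries, ENSMUSG00000036309 and ENSMUSG00000037058 came closest to Calca, at distances of 0.31 and 0.32. Their log2 ratios were 0.25 and 0.33. ENSMUSG00000024858 and ENSMUSG00000029434 came closest to Tac1, at 0.43 for both, with log2 ratios of -1.03 and -0.81. With 1 sample per group, such likeness rests on 2 levels per gene. The files do not pair these identifiers with symbols.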

How the data were processed

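Per the labels' protocols, RNA was purified from anti-LARP1 precipitates of DRG lysate on columns and made into libraries with a nanopore cDNA-PCR barcoding kit. The authors deposited estimated counts for Ensembl genes, without normalization, made with minimap2 and Salmon on GRCm39 (mm39), per the submitters' processing notes. Versions, annotation release and filters are not stated there. Every count was whole, so none was altered by rounding, and 0 further columns were left unused.

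Groups came from the sample titles and columns were matched by library name. CPM used column totals. Intervals were exact: Poisson for levels, Clopper-Pearson for ratios, and the conditional odds ratio interval for pairs of genes (SciPy 1.17.1). A floor of 3 counts over the group was planned for any group with fewer than 3 counts. It was used only against 0 counts, and the ratio of Nppb, with 1 injured count, was taken without it. Tests across genes were run in R 4.3.3 with the quasi-likelihood method of edgeR 4.0.16, TMM, filterByExpr and Benjamini-Hochberg adjustment over all genes tested. The fit was also run on counts simulated with the spread estimated between these libraries. Such a run cannot check the calls against a spread between animals. DESeq2 1.42.0, limma-voom (limma 3.58.1), other scalings and filters, a replicate block and leaving out libraries were the alternatives. The added CGRP sum, the interval rule and the assumed spread for members were chosen after seeing the data.

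The members and lists were chosen with earlier results of these data known. Named genes were all 5 members and, for the member with most counts, the 2 genes nearest over the 6 libraries and the 2 nearest in ratio at a like level, of which only the first kind is printed. The 13 gene lists (receptors, related peptides, peptide processing and cell types) were not analysed here: 0 of 16976 identifiers could be paired with a symbol through the gene table used, and the members' symbols came with their identifiers. Same-numbered libraries were not treated as pairs, since their deviations correlated at 0.04, -0.01 and -0.05.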

Additional observations from a re-analysis of the deposited data

How the results depend on the processing

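Tac1 kept its direction under every alternative (14), as did Calca (15). Leaving out a library only thinned the reads of 1 sample, so it was no check against a spread between animals. Nppb also kept its direction where the scaling changed or a library was left out and a value remained (9). With 1 injured and 7 uninjured counts, such alternatives could hardly change its sign, so they do not show that its ratio is stable. Nppb was not called in edgeR's fit without a filter or in DESeq2. The log2 ratio of Tac1 was -0.94 to -0.75 and lost its call only where the coefficient of variation was assumed, at 0.2 or 0.4 (-0.93 in both). For Calca the log2 ratio of 0.42 was 0.33 to 0.49 when single libraries were left out, and its counting interval included 0 without the third uninjured one (0.33). In tests across all genes Calca was called higher in only 4 of 16 fits. It was not called in edgeR's main fit (0.34), and among the others not with the replicate block (0.34) or either assumed coefficient of variation (0.34). Calcb was -0.38 to 0.16 when single libraries were left out, above 0 only without the third injured one. Calca minus Tac1 was 1.18 to 1.38 without single libraries. The genes called higher and lower, 786 and 699, were 750 and 677 with the replicate block, 305 and 176 with a coefficient of variation of 0.2, and 42 and 5 with 0.4. All ratios shifted together by -0.09 to -0.002 (log2) with other scalings of the totals, and by -0.19 in the fit on genes with at least 10 counts in every library of a group. Sst, and Nppb without the third injured library, had 0 counts in a group and no value. Calcb, Sst and Nppb were below the filter of edgeR's fit. Depth limits Calcb, Sst and Nppb.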

Other observations

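The 5 members together held 851 CPM in the injured group (95% exact Poisson interval 781 to 926) and 1014 CPM in the uninjured group (911 to 1126). Their sum was the same in the 3 injured libraries, with an SD of 0 counts where counting alone gives 13.4, and had an SD of 10 counts in the uninjured libraries, where counting gives 10.9. The cause of this evenness was not tested.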
